A study of Homo sapiens with 6 samples.

Results

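The genes described here encode the phase II conjugation enzymes, which attach a polar group to drugs, hormones, bile acids and reactive metabolites. They were chosen by gene symbol, as the UGT1A, UGT2A, UGT2B and UGT3A glucuronosyltransferases, the GSTA, GSTK, GSTM, GSTO, GSTP, GSTT and GSTZ glutathione transferases, the MGST microsomal glutathione transferases, the SULT1 and SULT2 sulfotransferases and the genes named NAT with a number. Pseudogene and antisense names were left out, and 52 of the 29153 listed genes remained. Of these, 33 had a mean FPKM (fragments scaled to transcript length and library size) of at least 0.5 over all libraries and were tested, and 19 lay below this filter. Of the NAT-named genes, NAT1 and NAT2 are the arylamine acetyltransferases of phase II metabolism. The other 8 are not arylamine acetyltransferases, and they include NAT10, an RNA acetyltransferase, NAT8L, which makes N-acetylaspartate in neurons, and NAT8, which acts on glutathione-derived cysteine conjugates.

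The RNA came from HepG2, a long-established human hepatocellular cancer line. Cells received a lentivirus with a control hairpin (shNC, 3 libraries) or with a hairpin against the long noncoding RNA LINC01977 (shLINC01977, 3 libraries) and were labelled as collected at 72 h. The sample titles give the knockdown libraries a single hairpin number, so effects of LINC01977 and of this hairpin cannot be told apart. Nothing in the labels says that replicates came from separate cultures, so the p-values measure the spread between these libraries, which may be technical. Total counts ranged from 49929024 to 60441515 per library, and Pearson correlations of log2 CPM were 0.986 to 0.988 within groups and 0.978 to 0.980 between groups. LINC01977 itself was close to undetected, with counts of 4, 0 and 16 in the shNC libraries and 0, 0 and 4 in the shLINC01977 libraries. The knockdown could therefore not be checked in these libraries at this depth. The paper reports that qRT-PCR was used to check knockdown in stable HepG2 cells, and does not say whether this covered the sequenced RNA. The hepatocyte and HepG2 markers were abundant in both groups, with ALB and AFP at mean FPKM of 1456 and 1283 in shNC cells and 713 and 1008 in shLINC01977 cells.

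In hepatocytes, glucuronosyltransferases of the endoplasmic reticulum use UDP-glucuronic acid, cytosolic sulfotransferases use the activated sulfate PAPS, and glutathione transferases use reduced glutathione. The conjugates are then carried out of the cell by ATP-driven pumps. Many of these genes are transcribed under the control of liver-enriched factors such as HNF4A and of ligand- or stress-activated factors such as PXR, AHR and NRF2.

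The question put to these genes was how their transcripts differed between knockdown and control cells. At an adjusted p under 0.05 (quasi-likelihood test in edgeR, Benjamini-Hochberg over all 13452 tested genes), 10 of the 33 tested genes were lower and 2 were higher in shLINC01977 cells. These are 30.3% lower and 6.06% higher, whereas 8.07% of all tested genes were lower and 7.05% were higher. When a call required a 2-fold change and P of 0.05 or less before adjustment, 4 genes (12.1%) were lower and 1 (3.03%) was higher, against 1.05% and 1.55% of all tested genes. The libraries of both groups did not overlap for 21 of the 33 (63.6%), of which 14 were lower and 7 higher, against 37.1% of all tested genes. The median log2 fold change of the 33 genes was -0.18, with 22 below 0 and 11 above, and that of all tested genes was -0.0010. Counting by enzyme class, 3 of 7 UGT, 3 of 6 SULT, 2 of 10 cytosolic or mitochondrial GST, 1 of 3 microsomal GST and 1 of 6 other NAT-named genes were lower. Both genes that were higher, UGT1A6 and SULT1A1, belong to groups of genes that share sequence, as do some of the other tested genes. Outside UGT1A and SULT1A, 8 of 26 tested genes were lower, by edgeR with TMM scaling and by DESeq2. That 0 of these 26 were higher follows from leaving out the groups that hold both higher genes. Higher values at an unadjusted p under 0.05 were seen for 2 of the 26 (GSTM2 and GSTM3 in edgeR). Of those 26, 15 had no overlap between groups, of which 4 were higher in shLINC01977 cells. In DESeq2, the same 12 genes had an adjusted p under 0.05. No share of all tested genes is given for DESeq2 or for an unadjusted p alone, so those counts have no background to be read beside.

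**Figure D1:**
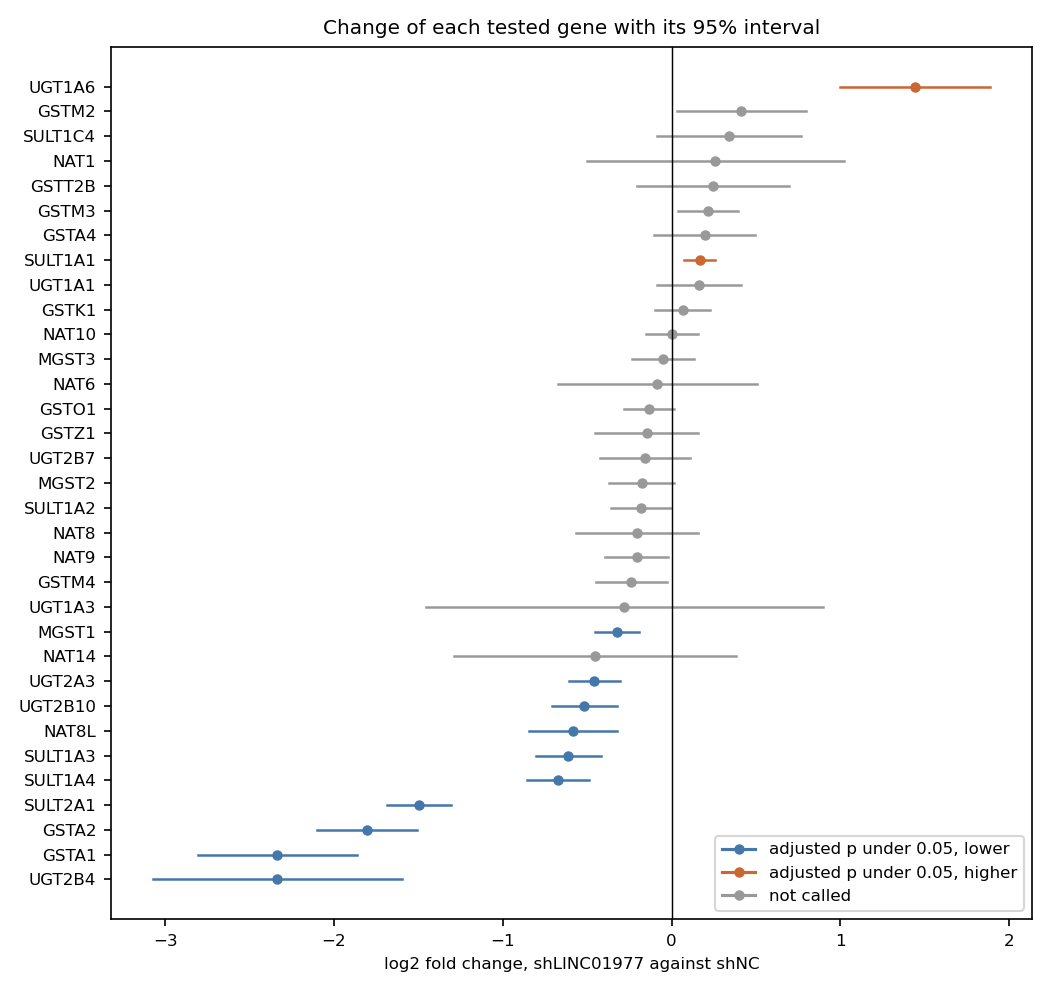
Log2 fold change (x axis, shLINC01977 against shNC, edgeR) of the 33 tested conjugation enzyme genes, ordered by size, with bars for the 95% interval. The called decreases run from -2.34 for UGT2B4 and GSTA1 to -0.32 for MGST1, and UGT1A6 at 1.44 lies apart from SULT1A1 at 0.17.

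Summed over all 52 genes, the FPKM was 407 ± 16.4 in shNC cells and 322 ± 8.69 in shLINC01977 cells (SD, n = 3 each). SULT2A1, GSTA1, SULT1A4, UGT2A3 and UGT2B10 made up 83.2% of this net difference, and SULT2A1 alone made up 36.2%. Genes that rose are subtracted in it, among them SULT1A1 by 3.12 FPKM. The part of SULT1A4, 12.2%, depends on how reads of shared sequence were assigned. The sulfotransferase sum went from 129 ± 6.83 to 85.2 ± 4.34, the glucuronosyltransferase sum from 68.7 ± 2.66 to 54.5 ± 1.33 and that of the cytosolic or mitochondrial glutathione transferases from 127 ± 6.83 to 107 ± 1.45 (FPKM, SD, n = 3 each). On this scale, which corrects for transcript length, the most abundant gene was GSTO1, an omega-class transferase that reduces dehydroascorbate, at 65.5 ± 5.09 FPKM in shNC cells and 62.4 ± 0.754 in shLINC01977 cells. SULT2A1 was second in shNC cells at 49.2 ± 4.08 FPKM and had 18.2 ± 1.06 FPKM in shLINC01977 cells, less than GSTO1, SULT1A1, UGT2A3, NAT10 and SULT1A4 there.

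**Figure D2:**
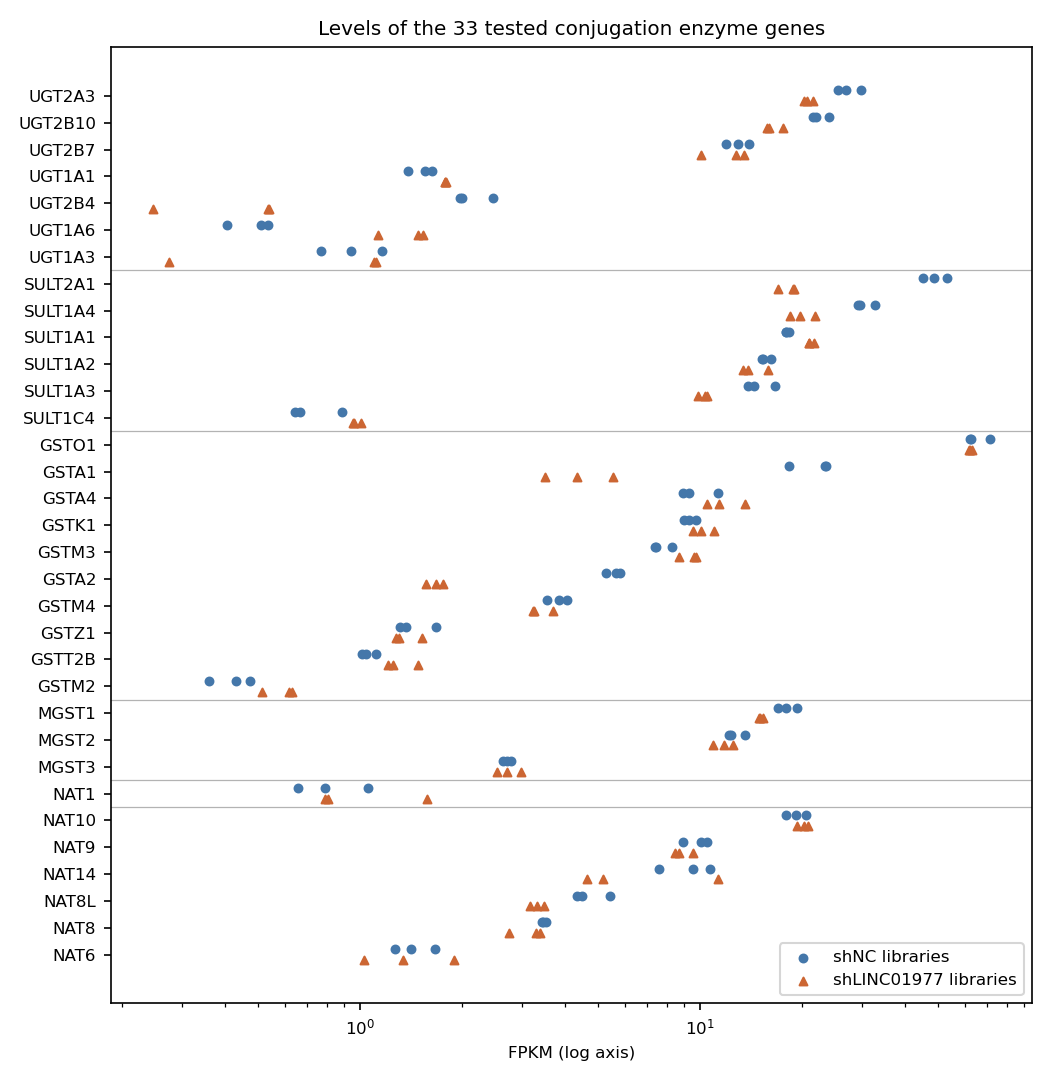
FPKM (x axis, log scale) of the 33 tested genes in each shNC library (circles) and shLINC01977 library (triangles), grouped by enzyme class. GSTO1 lies between 61.6 and 71.3 in every library, while GSTA1, GSTA2, SULT2A1 and UGT2B4 show separated groups with the shLINC01977 libraries on the left.

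The alpha-class glutathione transferases are the main soluble glutathione transferases of hepatocytes. Their tested genes, GSTA1, GSTA2 and GSTA4, did not share a direction. The stretches upstream of these genes and of SULT2A1 are shown because GSTA1, GSTA2 and SULT2A1 all decreased by more than 2-fold while GSTA4 was not called. They come from RefSeq (GRCh38.p14), are written 5′ to 3′ on the gene's strand, which is the minus strand for all 4, and end where the gene's listed interval begins. No stretch is shown for UGT2B4, which also decreased by more than 2-fold, because no RefSeq window was available for it. Capitals mark the bases at which GSTA1 and GSTA2 differ.
GSTA1, chr6:52803911-52804066: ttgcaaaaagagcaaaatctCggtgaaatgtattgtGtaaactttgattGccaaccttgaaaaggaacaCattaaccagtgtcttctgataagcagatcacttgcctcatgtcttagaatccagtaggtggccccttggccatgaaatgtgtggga
GSTA2, chr6:52763570-52763725: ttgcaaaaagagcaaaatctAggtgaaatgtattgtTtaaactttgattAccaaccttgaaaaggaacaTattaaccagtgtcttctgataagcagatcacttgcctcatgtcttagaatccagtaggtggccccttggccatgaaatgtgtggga
GSTA4, chr6:52995379-52995534: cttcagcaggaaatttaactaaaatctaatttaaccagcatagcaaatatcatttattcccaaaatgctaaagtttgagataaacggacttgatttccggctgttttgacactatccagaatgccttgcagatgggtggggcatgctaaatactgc
SULT2A1, chr19:47886398-47886565: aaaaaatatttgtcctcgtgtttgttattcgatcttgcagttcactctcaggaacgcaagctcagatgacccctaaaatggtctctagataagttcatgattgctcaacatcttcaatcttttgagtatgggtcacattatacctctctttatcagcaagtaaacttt
Over the whole 250 bases before the RefSeq start, GSTA1 and GSTA2 were 97.2% identical and GSTA1 and GSTA4 were 50.2% identical. GSTA1 and SULT2A1 were 50.4% identical. The stretches were picked by how the genes changed, and any part of them in the differences was not tested. In the 156 bases shown, GSTA1 and GSTA2 differed at 4.

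GSTA1 (ENSG00000243955, chr6:52791664-52803910) was measured at 23.8, 29.8 and 29.8 CPM (counts scaled to the library total over the tested genes, with TMM factors) in the shNC libraries and at 5.34, 6.90 and 4.25 CPM in the shLINC01977 libraries. The groups were far apart, the highest shLINC01977 library lying well under the lowest shNC library. The decrease was 5.05-fold, and the log2 fold change, -2.34, had a standard error (SE) of 0.20 (edgeR adjusted p = 0.00130). GSTA2 (ENSG00000244067, chr6:52750089-52763569), its near neighbour on the chromosome, had 9.73, 8.73 and 9.28 CPM in shNC cells and 2.78, 2.69 and 2.45 CPM in shLINC01977 cells. Libraries of one group were close to each other, and the log2 fold change was -1.81 (SE 0.12, edgeR adjusted p = 7.3e-04). Of the 50-base words of the GSTA1 and GSTA2 transcripts, 26.2% and 18.4% also occur in another gene, so the split of reads between them is uncertain. Their summed counts had a log2 fold change of -2.19 (SE 0.15, edgeR adjusted p = 6.8e-04).

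GSTA4, which conjugates the lipid peroxidation product 4-hydroxynonenal, had 27.0 ± 3.47 CPM in shNC cells and 30.9 ± 3.65 CPM in shLINC01977 cells (SD, n = 3 each). Its libraries overlapped, and its log2 fold change of 0.20 had a 95% interval from -0.10 to 0.50, which does not meet that of GSTA1 (-2.81 to -1.87) or GSTA2 (-2.10 to -1.51). The order of these genes by length-corrected level therefore changed. GSTA1 had 18.3, 23.3 and 23.4 FPKM in the shNC libraries against 9.26, 11.3 and 8.91 FPKM for GSTA4. In the shLINC01977 libraries GSTA1 had 4.35, 5.53 and 3.50 FPKM against 11.4, 10.5 and 13.5 FPKM for GSTA4. GSTA1 was thus the higher of the pair in every shNC library and the lower in every shLINC01977 library.

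None of the other cytosolic or mitochondrial glutathione transferases was called with TMM scaling. In the mu class on chromosome 1, GSTM2 and GSTM3 had log2 fold changes of 0.41 and 0.22 (edgeR adjusted p = 0.135 and 0.105), and GSTM4 had -0.24 (edgeR adjusted p = 0.123). The groups of all 3 mu-class genes did not overlap, and with scaling by library totals GSTM3 was called higher, at 0.28 (edgeR adjusted p = 0.0463). GSTM2 overlaps GSTM1 and GSTM4 on the same strand, so reads there may be shared between these genes. With a mean FPKM of 0.421 in shNC and 0.587 in shLINC01977 cells, GSTM2 passed the filter only through the shLINC01977 group. GSTO1, GSTZ1, GSTK1 and GSTT2B had log2 fold changes of -0.13, -0.15, 0.065 and 0.24, each with a 95% interval that includes 0. GSTT2B shares 90.9% of its 50-base words with another gene, and with GSTT2 added its log2 fold change was 0.053 (edgeR adjusted p = 0.896). GSTP1, the pi-class transferase, lay below the filter, with counts between 0 and 21 in every library.

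The microsomal transferases are membrane proteins that also act on lipid peroxides. MGST1 (ENSG00000008394, chr12:16347142-16609259) had 161, 167 and 180 CPM in the shNC libraries and 134, 139 and 133 CPM in the shLINC01977 libraries. The decrease was small and the groups did not overlap, with a log2 fold change of -0.32 (SE 0.055, edgeR adjusted p = 0.0116). Other listed genes lie over its interval, including LMO3 on the opposite strand, and whether the counting used strand is not given in the sources used here. MGST2 and MGST3 had log2 fold changes of -0.18 and -0.049, with 95% intervals from -0.37 to 0.017 and from -0.23 to 0.13. For MGST3 the sign turned to 0.017 with scaling by library totals.

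**Figure D3:**
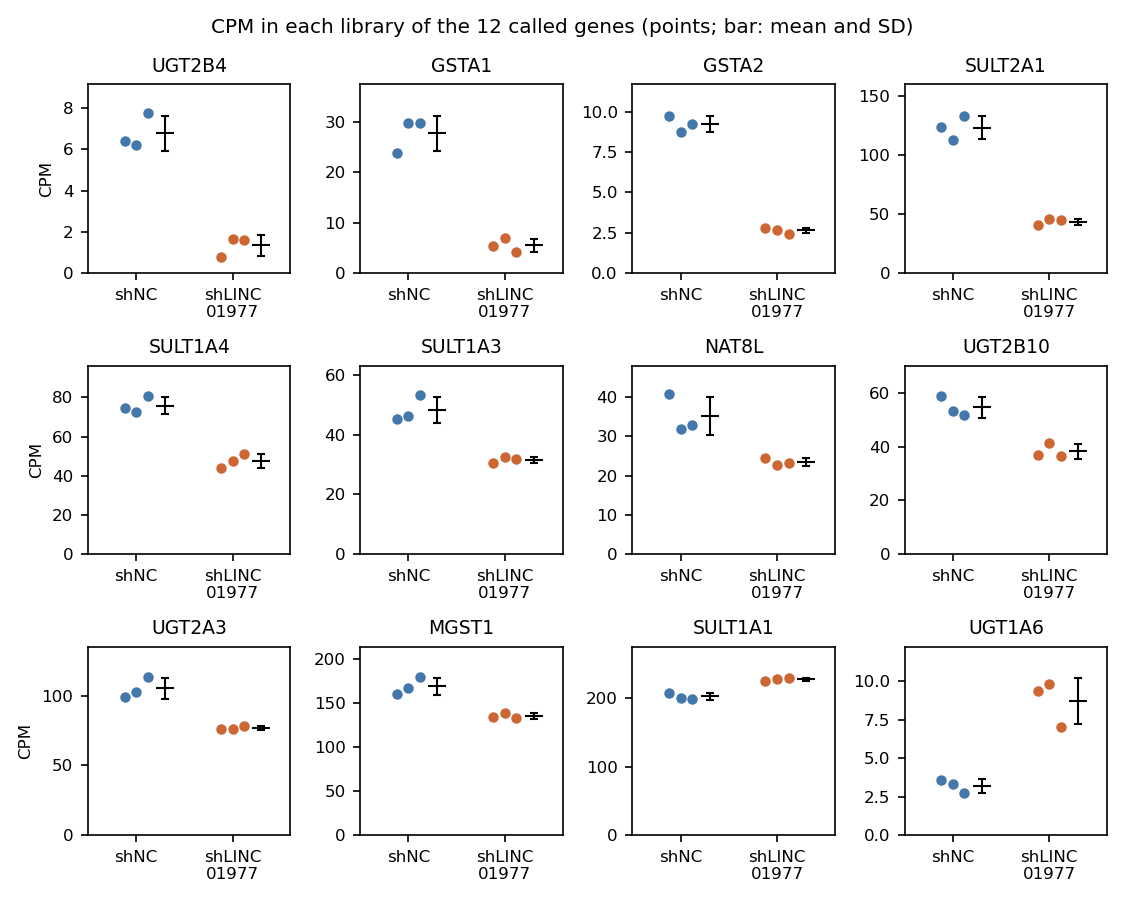
CPM (y axis, from 0, own scale in each panel) in each library of the 12 genes with an adjusted p under 0.05, with the mean and SD of each group beside the points. The groups do not overlap in any panel. SULT1A1 has the smallest ratio between groups, at 199 to 208 CPM against 224 to 229 CPM.

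SULT2A1 (ENSG00000105398, chr19:47870466-47886397) sulfates dehydroepiandrosterone, other hydroxysteroids and bile acids. It had 124, 113 and 133 CPM in the shNC libraries and 40.7, 45.5 and 44.6 CPM in the shLINC01977 libraries. Spread within each group was small beside the distance between them, and the log2 fold change was -1.50 (SE 0.080, edgeR adjusted p = 4.7e-04). Only 0.31% of its 50-base words occur in another gene, so its counts depend little on how shared reads were assigned. The window of 250 bases before its start held neither TGACNNNGC nor GCGTG.

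SULT1A3 and SULT1A4 encode the catecholamine sulfotransferase in a duplicated part of chromosome 16. SULT1A4 (ENSG00000213648, chr16:29459889-29464976) had 74.4, 72.4 and 80.8 CPM in shNC cells and 44.0, 47.7 and 51.2 CPM in shLINC01977 cells, a log2 fold change of -0.67 (SE 0.077, edgeR adjusted p = 0.00296). Counts of SULT1A3 (ENSG00000261052, chr16:30199228-30204310) gave 45.2, 46.4 and 53.4 CPM against 30.5, 32.4 and 32.0 CPM, a log2 fold change of -0.61 (SE 0.080, edgeR adjusted p = 0.00465). Both were lower in every shLINC01977 library than in any shNC library. They cannot be told apart by most reads, since 97.3% and 81.4% of their 50-base words occur in another gene, and the 250 bases before their RefSeq starts are identical. Summed, they had a log2 fold change of -0.65 (edgeR adjusted p = 0.00250), and with their overlapping readthrough genes SLX1A-SULT1A3 and SLX1B-SULT1A4 added it was -0.52 (edgeR adjusted p = 0.00394). The sum of all 4 SULT1A genes, in which SULT1A1 was the largest component, was not called, at -0.10 (edgeR adjusted p = 0.130).

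The phenol sulfotransferase gene SULT1A1 (ENSG00000196502, chr16:28605196-28623625) was higher, with 208, 200 and 199 CPM in the shNC libraries and 224, 228 and 229 CPM in the shLINC01977 libraries. This difference was 1.12-fold, a log2 fold change of 0.17 (SE 0.039, edgeR adjusted p = 0.0352). It was not called with any library left out, where the adjusted p from edgeR was 0.0571 to 0.0999. Its close relative SULT1A2 had 44.6 ± 2.02 CPM in shNC cells and 39.4 ± 3.01 CPM in shLINC01977 cells (SD, n = 3 each), with a log2 fold change of -0.18 (edgeR adjusted p = 0.162). Summed over all 4 SULT1A genes, the CPM were 374, 363 and 376 in the shNC libraries and 337, 346 and 355 in the shLINC01977 libraries, and the log2 fold change was -0.10 (edgeR adjusted p = 0.130). In these sums SULT1A1 was the largest component in every library. SULT1C4 was low, at 2.70 ± 0.484 and 3.42 ± 0.102 CPM (SD, n = 3 each), with a log2 fold change of 0.34 and a 95% interval from -0.088 to 0.77.

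Among the glucuronosyltransferases, the tested UGT2 genes on chromosome 4 had log2 fold changes below 0 and 3 of these 4 genes were called lower. UGT2B4 (ENSG00000156096, chr4:69480165-69526014), which glucuronidates bile acids and catechol oestrogens, had 6.39, 6.20 and 7.75 CPM in the shNC libraries. In the shLINC01977 libraries it had 0.763, 1.64 and 1.61 CPM, the first being the lowest of all. Its mean FPKM of 0.441 in shLINC01977 cells lay under the filter, which it passed through its 2.14 in shNC cells. The log2 fold change was -2.34 (SE 0.31, edgeR adjusted p = 0.00485), with a 95% interval from -3.07 to -1.60, and it was -1.13 with limma on log2(FPKM + 1), a scale that understates changes of low genes. UGT2B10 (ENSG00000109181, chr4:68815993-68831196), an N-glucuronidating enzyme that acts on nicotine, had 59.0, 53.2 and 51.7 CPM in shNC cells and 36.7, 41.4 and 36.6 CPM in shLINC01977 cells. Its log2 fold change was -0.52 (SE 0.081, edgeR adjusted p = 0.00866), and 30.9% of its 50-base words occur in another gene. UGT2A3 (ENSG00000135220, chr4:68928463-68951791) was the most abundant glucuronosyltransferase by FPKM. Its values were 99.3, 103 and 114 CPM in the shNC libraries and 76.0, 75.8 and 78.2 CPM in the shLINC01977 libraries, a log2 fold change of -0.46 (SE 0.064, edgeR adjusted p = 0.00588). UGT2B7, which conjugates morphine and steroids, had 36.8 ± 2.46 CPM and 33.0 ± 4.40 CPM (SD, n = 3 each), with overlapping libraries and a 95% interval of the log2 fold change from -0.43 to 0.11. The intervals of UGT2B7 and UGT2B4 do not meet.

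The UGT1A genes on chromosome 2 each have their own first exon and share the remaining exons, so reads in the shared part cannot be assigned to one of them. UGT1A6 (ENSG00000167165, chr2:233691607-233773300), which acts on small planar phenols, had 3.58, 3.34 and 2.70 CPM in the shNC libraries and 9.36, 9.79 and 7.01 CPM in the shLINC01977 libraries. Every shLINC01977 library was above every shNC library, and the log2 fold change was 1.44 (SE 0.19, edgeR adjusted p = 0.00448). On the log2(FPKM + 1) scale in limma it was 0.68. The level was low, with a mean FPKM of 0.485 ± 0.0684 in shNC cells and 1.39 ± 0.220 in shLINC01977 cells (SD, n = 3 each). UGT1A6 thus passed the filter of 0.5 only through its level in shLINC01977 cells, and its call as higher carries this limit. UGT1A1, the bilirubin glucuronosyltransferase, had 8.87, 7.78 and 9.12 CPM against 9.67, 9.74 and 9.46 CPM, with a log2 fold change of 0.16 and a 95% interval from -0.086 to 0.41. UGT1A3 had 2.31, 2.80 and 3.45 CPM in shNC cells and 3.18, 0.805 and 3.09 CPM in shLINC01977 cells. The low value came from the second shLINC01977 library, in which UGT1A4 had a count of 220 against 0 to 25 in the other 5 libraries. Summed over the 6 UGT1A genes, the CPM were 15.0, 16.2 and 16.2 in the shNC libraries and 22.4, 24.1 and 20.9 in the shLINC01977 libraries, a log2 fold change of 0.51 (SE 0.087, edgeR adjusted p = 0.0116). This sum does not depend on how reads were split among the 6 genes.

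**Figure D4:**
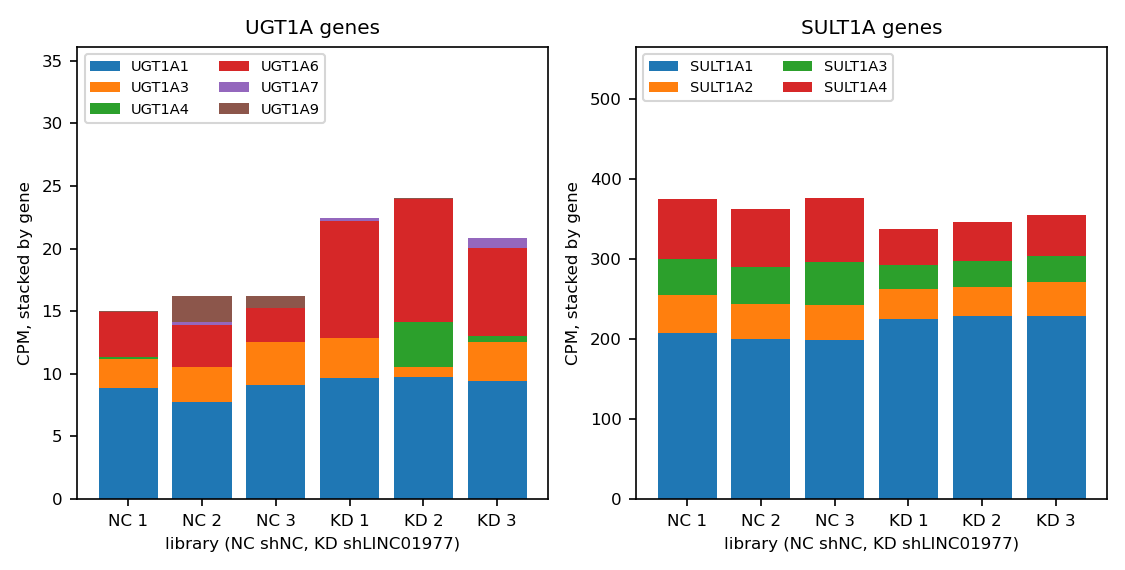
CPM (y axis) of the UGT1A genes (left) and SULT1A genes (right), stacked by gene for each library (NC, shNC; KD, shLINC01977). The UGT1A sum is 15.0 to 16.2 in shNC and 20.9 to 24.1 in shLINC01977 libraries, and the SULT1A sum is 363 to 376 and 337 to 355.

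Shared sequence was not limited to genes that changed. Of the 33 tested genes, 9 had more than 20% of their 50-base words in another gene, and 14 had another listed gene over their interval. UGT2B4, SULT2A1, MGST1 and NAT8L, with 3.14%, 0.31%, 0.026% and 0% of their words in another gene, were all called lower.

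**Figure D5:**
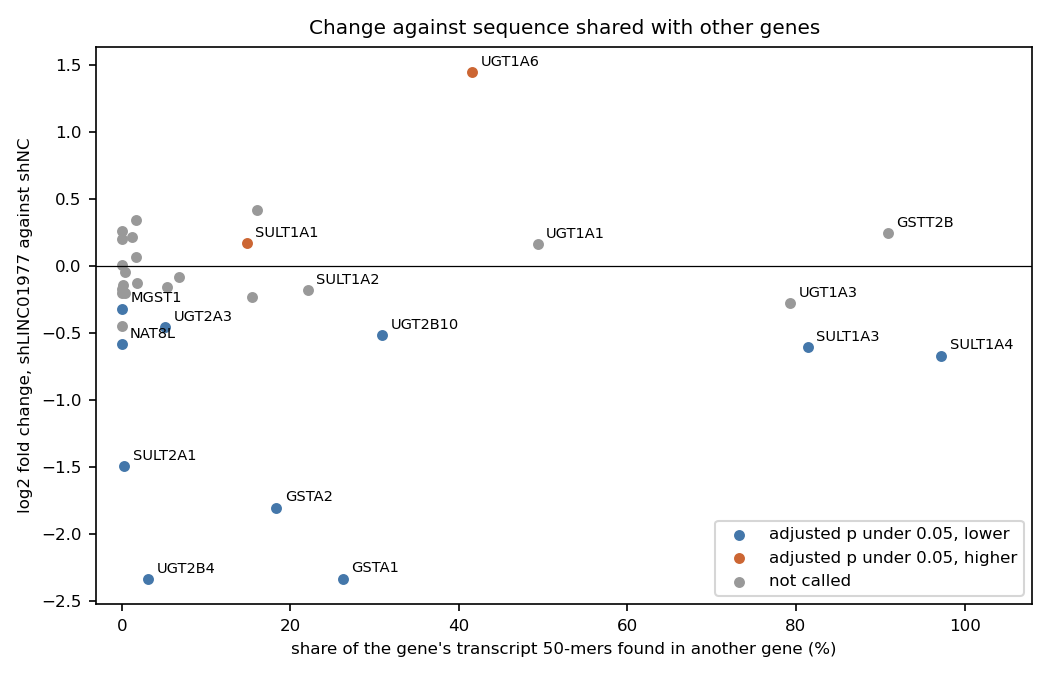
Log2 fold change (y axis, shLINC01977 against shNC) of the 33 tested genes against the share of their transcripts' 50-base words found in another gene (x axis, %, GENCODE 29). Decreases occur at both ends, from NAT8L at 0% to SULT1A4 at 97.3%, and UGT1A6 has 41.6%.

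The arylamine acetyltransferase NAT1 was low and variable, at 3.40 ± 0.789 CPM in shNC cells and 4.08 ± 1.67 CPM in shLINC01977 cells (SD, n = 3 each), and NAT2 had counts of at most 4. Of the other genes that carry the NAT symbol, NAT8L (ENSG00000185818, chr4:2059512-2069089) was called. It had 40.8, 31.9 and 32.9 CPM in the shNC libraries and 24.6, 22.7 and 23.2 CPM in the shLINC01977 libraries, a log2 fold change of -0.58 (SE 0.11, edgeR adjusted p = 0.0153). The first shNC library stood above the other two, and the call was lost without the second or the third shLINC01977 library (edgeR adjusted p = 0.0581 and 0.0533). NAT8, which acetylates cysteine conjugates in the last step of mercapturic acid formation, had 4.15 ± 0.0326 and 3.60 ± 0.440 CPM (SD, n = 3 each) and a log2 fold change of -0.21. NAT6, NAT9, NAT10 and NAT14 had log2 fold changes of -0.083, -0.21, 0.0024 and -0.45. For NAT14, the second shLINC01977 library was at 29.8 CPM and the others at 12.1 and 13.4 CPM.

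The 19 genes below the filter had at most 336 counts in any library, the highest being GSTO2. In an edgeR fit of all listed genes, 1 of them had an adjusted p under 0.05. This was UGT2B11, a relative of UGT2B10, with counts of 62, 66 and 106 in shNC cells and 26, 31 and 30 in shLINC01977 cells (log2 fold change -1.46, edgeR adjusted p = 0.0338). SULT1B1 counts were also lower in every shLINC01977 library, at 6, 15 and 19 against 28, 31 and 35. In the other direction, counts of GSTO2 were 196, 246 and 257 in shNC cells and 296, 336 and 291 in shLINC01977 cells. NAT2, UGT2B15 and SULT1E1 had no count above 4.

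Other genes of the pathway were read from lists. Of all tested genes, 7.05% were higher and 8.07% were lower in edgeR, and each edgeR count from a list is to be read beside these shares. Counts from DESeq2 or at an unadjusted p have no such share here. Of 18 tested genes that supply cosubstrates, 2 were higher and 3 lower, with a median log2 fold change of -0.072. UGDH, which makes UDP-glucuronic acid, and GSS, the glutathione synthetase, rose by log2 fold changes of 0.29 and 0.25 (edgeR adjusted p = 0.0135 and 0.0318). SLC35D1, a carrier of UDP-glucuronic acid into the endoplasmic reticulum, and SLC3A2, a subunit of amino acid transporters, fell by 0.46 and 0.39 on the log2 scale (edgeR adjusted p = 0.0134 and 0.00208). PGD, a source of NADPH, fell by 0.19 on the same scale (edgeR adjusted p = 0.0232). Of 8 tested export pumps, 1 was lower and 0 were higher in edgeR and in DESeq2 (0 higher also at an unadjusted p under 0.05), with a median log2 fold change of 0.018. The called one was ABCC6, with a log2 fold change of -0.32 (edgeR adjusted p = 0.0122).

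Of 17 tested genes in a list of transcription factors that act on phase II genes, 8 were lower and 1 was higher, with a median log2 fold change of -0.31. Of all tested genes, 8.07% and 7.05% were called in these directions. The list includes KEAP1, which binds NRF2 and is not itself a transcription factor. KEAP1 was not called, and its log2 fold change of -0.31 is the median of the list. ONECUT1 (HNF6) and NR1H4, the bile acid receptor FXR, fell most, with log2 fold changes of -1.58 and -1.43 (edgeR adjusted p = 0.00409 and 8.7e-04). ONECUT1 passed the filter only through shNC cells, at a mean FPKM of 0.928 against 0.319 in shLINC01977 cells. NR0B2, the corepressor SHP, and HNF4A had log2 fold changes of -0.69 and -0.55 (edgeR adjusted p = 0.00193 and 0.00715). The one that was higher, AHR, had 17.7 ± 1.81 CPM in shNC cells and 24.4 ± 1.33 CPM in shLINC01977 cells (SD, n = 3 each), and its log2 fold change was 0.47 (edgeR adjusted p = 0.0240). Of 15 other conjugating or hydrolysing enzymes, 4 were lower and 0 higher in edgeR, with a median of -0.083. Higher values at an unadjusted p under 0.05 were seen for 4 of them, and DESeq2 called 3 higher and 5 lower after adjustment. Neither count has a share of all tested genes beside it. The 4 lower in edgeR were the carboxylesterases CES1 and CES2, the acyl-CoA synthetase ACSM3 and the histamine methyltransferase HNMT, with log2 fold changes of -0.94, -0.40, -0.89 and -0.40.

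In the 250 bases before the RefSeq starts, 41 of the 52 genes had a window, 45 windows in all. TGACNNNGC, the core of the antioxidant response element, was found on either strand in 22.2% of these windows and in 10.9% of 35116 windows of all genes. GCGTG, the core of the xenobiotic response element bound by AHR, was in 28.9% and 32.2%. Relatives are counted separately in these shares, such as UGT2B10 and UGT2B11, which both held TGACNNNGC, and GSTA1 and GSTA2, which held neither. Some windows with TGACNNNGC, such as those of UGT2B11 and GSTP1, belong to genes below the filter. A match in letters is a description and not a binding site.

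Most markers of hepatocytes and HepG2 cells were also lower in shLINC01977 cells. Of 10 such markers, 7 were lower and 0 higher in edgeR and in DESeq2, also at an unadjusted p under 0.05 in edgeR. Their median log2 fold change was -0.48. Of all tested genes, 8.07% were lower and 7.05% were higher in edgeR, and no such share is given for DESeq2 or an unadjusted p. The summed FPKM of the 10 markers was 4900 to 5285 in the shNC libraries and 3660 to 3697 in the shLINC01977 libraries. FGB, ALB, APOA1 and TF had log2 fold changes of -1.10, -1.09, -0.74 and -0.66. APOB, AHSG and TTR were not called, with log2 fold changes of 0.0074, 0.060 and -0.17. All libraries came from a single cell line, and in bulk RNA fewer cells that express a gene and less of its RNA per cell cannot be told apart. Of the 4 mesenchymal markers in the table, PDGFRB was the only one tested and rose by a log2 fold change of 1.47 (edgeR adjusted p = 0.00620). VIM, below the filter, went the other way, at 0.881, 1.68 and 1.09 CPM in the shNC libraries and 0.690, 0.493 and 0.078 CPM in the shLINC01977 libraries. The summed FPKM of the 4 markers, mostly PDGFRB, was 0.547 to 0.874 in shNC and 1.51 to 2.02 in shLINC01977 libraries. The defining markers THY1 and COL3A1 were at or near 0 in both groups. Summed immune markers were at 10.5 to 13.1 and 14.2 to 16.5 FPKM with 0 of 2 tested called in edgeR (1 higher at an unadjusted p under 0.05, and 1 higher in DESeq2 after adjustment), while endothelial markers were at 0.266 to 0.441 and 0.220 to 0.315 FPKM with none tested. Of the immune markers, CD68 had a mean FPKM of 10.4 in shNC and 14.8 in shLINC01977 cells, CD14 had 0.978 and 0.774, and PTPRC, the defining leukocyte marker, had 0.0022 and 0. The part of these markers in the differences between the conjugation enzyme genes was not tested.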

How the data were processed

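Total RNA from 6 HepG2 libraries was prepared by the authors with TRIzol and read on an Illumina HiSeq. The deposited table holds, per gene and library, a whole-number count that is not normalized and, as the authors computed it, an FPKM value scaled to transcript length and library total. The submitters' processing notes name hg38, bcl2fastq 2.0, HISAT2, StringTie, DESeq2 and limma without giving their roles. How the counts were made is not given in the sources used here. They may be estimates from transcript coverage rather than tallies of reads, which would affect CPM, SE and p-values, above all for genes of shared sequence. Library totals, from 49929024 to 60441515, give little precision to most genes below the filter.

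Counts were tested with edgeR 4.0.16 in R 4.3.3 (TMM scaling, quasi-likelihood test, p-values adjusted by Benjamini-Hochberg) over 13452 genes whose mean FPKM reached 0.5. The script was tested on simulated data. Alternatives were DESeq2 1.42.0, limma 3.58.1 on log2(FPKM + 0.1) and log2(FPKM + 1), other scalings and filters, a replicate block, each library left out, and genes of shared sequence summed. Intervals are 95% intervals of the edgeR log2 fold change. Genes below the filter were read from counts and a fit of all genes. With 3 libraries against 3, the exact permutation test gives no p under 0.1 and was not used.

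The genes and the lists were chosen with earlier results of these data known. Every member above the filter is named, with full statistics for those called, and up to 4 called genes per list and direction. UGT2B11, SULT1B1, GSTO2 and UGT1A4 were singled out after their values were seen. Same-numbered libraries did not deviate together (correlations of -0.032, 0.0044 and 0.063), so replicate numbers do not pair the samples. Shared 50-base words were counted in GENCODE 29 transcripts. One listed transcription factor and the motif tied to it are not reported here.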

Additional observations from a re-analysis of the deposited data

How the results depend on the processing

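UGT2B4, GSTA1, GSTA2, SULT2A1, UGT2B10, UGT2A3, MGST1 and UGT1A6 kept their direction and an adjusted p under 0.05 in every alternative that tested them. Over the 12 called genes, 164 of 177 gene and alternative pairs kept both, 12 lost the call (SULT1A1, NAT8L, SULT1A3 and SULT1A4) and 1 reversed. These pairs leave out calls gained by other genes. Without the second shLINC01977 library, 10 genes were lower although NAT8L was not called, so a gene outside the 12 was called lower there. The reversed one is SULT1A1, at -0.10 with the SULT1A genes summed. That sum mixes SULT1A1 with the lower SULT1A3 and SULT1A4, so it is not an estimate of any single gene. Sizes shrank most with limma on log2(FPKM + 1), from -2.34 to -1.13 for UGT2B4 and from 1.44 to 0.68 for UGT1A6, while GSTA1 was at -2.06. The number of genes higher at an adjusted p under 0.05 was 3 with library totals in edgeR, where GSTM3 was added, and went from 2 to 1 with no filter, with a minimum mean FPKM of 1 and with the replicate block, and was 1 with each library left out, since SULT1A1 lost its call or UGT1A6 was no longer tested. With the replicate block, the adjusted p of SULT1A1 was 0.0832 (edgeR) and 10 genes were lower, and the block changed no other call. By the 2-fold and P 0.05 rule, calls were 2 higher and 7 lower with no filter, and 0 were higher with a mean FPKM of 1 or more or with limma on log2(FPKM + 1). Sums of SULT1A3 and SULT1A4, with or without readthrough genes, were chosen after seeing the data and are included in the 177 pairs. Low counts limit most of the 19 genes below the filter, of which 3 reached a count of 100 or more in a library.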

Other observations

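Within the UGT1A genes, counts moved between libraries of one group. UGT1A9 had counts of 5, 99 and 56 in the shNC libraries and 0, 6 and 0 in the shLINC01977 libraries. UGT1A7 had 0, 12 and 0 in the shNC libraries and 13, 0 and 43 in the shLINC01977 libraries. For UGT1A4 the counts were 8, 0 and 0 in the shNC libraries and 0, 220 and 25 in the shLINC01977 libraries. In the glutathione transferases below the filter, GSTM1 had counts of 33, 40 and 38 in the shNC libraries and 46, 75 and 52 in the shLINC01977 libraries, and GSTT2 had 36, 8 and 14 against 12, 14 and 0.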
